A study of Mus musculus with 6 samples.

Results

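The genes described here are the 6 that carry out and control the shared opening steps of branched-chain amino acid breakdown: Bcat1, Bcat2, Bckdha, Bckdhb, Dbt and Bckdk. They were chosen by symbol as a named pathway, with earlier results of these data known, and all 6 were found among the 11922 genes of the count table. RNA-seq was done on CD8+ T cells from spleens of C57BL6/J mice, purified by magnetic selection for CD8 alpha, in 2 groups of 3 libraries. Both groups were activated for 72 hours with beads carrying anti-CD3 and anti-CD28 together with recombinant human IL-2 at 100 units/ml, and were then expanded in IL-2 for 4 days. The vehicle group received water, and the AOA group received 0.25 mM aminooxyacetic acid, an inhibitor of enzymes whose cofactor is pyridoxal phosphate (PLP, made from vitamin B6), from activation until harvest on day 7. Cells of mouse donors 1, 2 and 3 were split between both treatments, so that each mouse gave a vehicle library and an AOA library with the same replicate number. The libraries are bulk RNA, in which fewer cells expressing a gene and less RNA of it per cell cannot be told apart.

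Leucine, isoleucine and valine are first transaminated: a branched-chain aminotransferase moves the amino group onto alpha-ketoglutarate, which gives glutamate and a branched-chain keto acid. BCAT1 is the cytosolic and BCAT2 the mitochondrial isoenzyme, and both use PLP as cofactor. The keto acid is then decarboxylated irreversibly by the mitochondrial branched-chain keto acid dehydrogenase complex, in which BCKDHA and BCKDHB are the alpha and beta chains of the decarboxylase, DBT is the transacylase core, and DLD is the flavoprotein shared with the pyruvate and oxoglutarate dehydrogenases. BCKDK phosphorylates BCKDHA and thereby turns the complex off, and the phosphatase PPM1K turns it back on. Activated T cells take up large amounts of leucine, mainly through the transporter formed by SLC7A5 and SLC3A2.

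The libraries held 12881962 to 21997078 counted reads. Values are given as CPM (reads of a gene in 1000000 counted reads, with library sizes scaled by edgeR's TMM factors) within a gene, and as RPKM (CPM per kilobase of the deposited gene length) between genes. A gene was called where edgeR's quasi-likelihood test, adjusted by Benjamini-Hochberg over the 11759 genes tested, gave an adjusted p under 0.05. Much of the transcriptome differed between the groups: 53.0% of genes tested were called, made up of 26.2% called higher and 26.8% called lower with AOA, and the groups did not overlap in 62.1%. Vehicle replicate 2 stood apart from the other two vehicle libraries on the second principal component, which held 10.8% of the variance (-44.2 against 21.9 and 19.4), and results that rest on it are given with and without it. Of the CD8+ T cell markers, 5 of 6 were in the table and summed to 2908 to 3737 CPM in vehicle and 3994 to 4644 CPM in AOA libraries. Cd8a and Cd8b1 were higher with AOA (log2 fold changes 1.03 and 0.64), whereas Cd3e, Cd3d and Cd3g were at -0.27, -0.13 and -0.31 and were not called. Markers of other cells moved with treatment too: 3 CD4+ T cell markers summed to 82.2 to 137 CPM in vehicle and 21.7 to 31.3 CPM with AOA (Cd4 at 82.8 and 9.81 CPM on average, and Foxp3 at 13.3 and 17.1 CPM, not called), and 4 of 5 B cell markers to 12.6 to 16.6 and 22.6 to 30.7 CPM. The sums were 40.8 to 54.2 and 0.873 to 3.33 CPM for 3 of 5 myeloid markers, which were mostly Itgam, and 27.4 to 48.7 and 2.12 to 2.91 CPM for 2 of 5 dendritic cell markers, Itgax and Xcr1. For 3 natural killer cell markers they were 145 to 308 and 128 to 213 CPM, a sum mostly of Eomes (151 and 155 CPM on average), whereas Klrb1c was lower with AOA (57.7 and 7.14 CPM, log2 fold change -3.02, edgeR adjusted p = 0.00310). Lyz2 was at 0 in vehicle replicates 1 and 3, as was Ncr1, and Cd14 was at 0 in AOA replicates 1 and 3. Erythroid markers were not analysed here. Which cells expressed these markers was not tested, and neither was the part of the markers in the results on the 6 genes.

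All 6 genes passed the filter on low counts. With AOA, 4 of the 6 were called higher (Bcat1, Bckdhb, Dbt and Bckdk), against 26.2% of all genes tested, and 1 was called lower (Bckdha), against 26.8%. Bcat2 was not called. The groups did not overlap for any of the 6, against 62.1% of all genes: 4 genes lay above vehicle, against 31.0% of all genes, and 2 below it, against 31.1%. The median log2 fold change of the 6 was 0.88, and that of all genes tested was -0.02. All 6 differences had the same sign in each of the 3 mice, but their size depended on the mouse: mouse 2 gave the smallest change for 5 genes, the exception being Bcat2, and vehicle replicate 2 was the highest vehicle library for 5 genes, the exception being Bckdha.

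**Figure D1:**
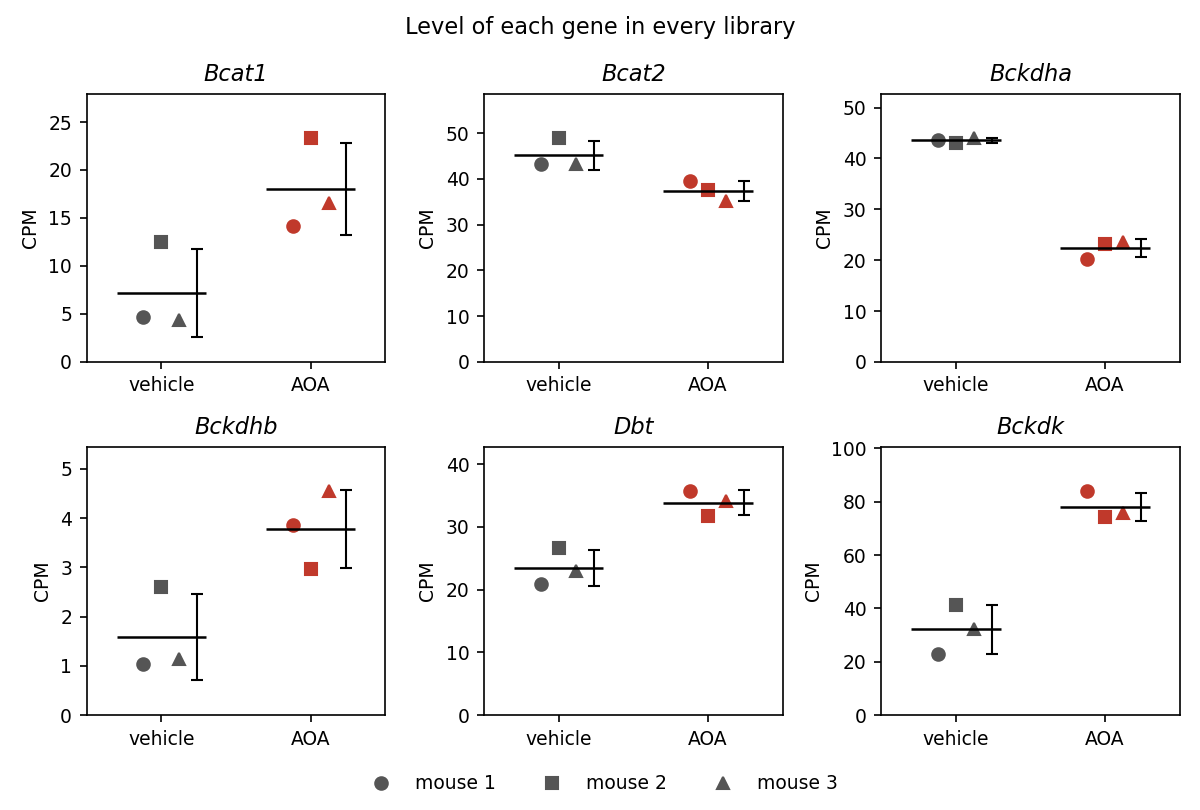
Level of each gene (y axis, CPM, each panel from 0) in the vehicle (grey) and AOA (red) libraries. Marker shape gives the mouse, the line the group mean and the bar 1 SD of 3 libraries. The AOA points lie above all vehicle points for Bcat1, Bckdhb, Dbt and Bckdk and under them for Bcat2 and Bckdha, and the vehicle square (mouse 2) is the vehicle point nearest to the AOA points for Bcat1, Bckdhb, Dbt and Bckdk.

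Of the transaminases, Bcat1 rose and Bcat2 was not called. Bcat1, which lies on the minus strand of mouse chromosome 6 (GRCm38, chr6:144993835-145076184), was measured from 59, 197 and 81 reads in vehicle replicates 1 to 3 and 307, 441 and 329 reads in AOA replicates 1 to 3. These correspond to 4.68, 12.5 and 4.40 CPM in vehicle and 14.1, 23.3 and 16.6 CPM with AOA. Each AOA library was above each vehicle library, but vehicle replicate 2 lay close to AOA replicate 1. The mean rose from 7.19 ± 4.59 to 18.0 ± 4.76 CPM (SD, n = 3), which was 2.50-fold (95% interval 1.35 to 4.61), with a log2 fold change of 1.32 (SE 0.39, edgeR adjusted p = 0.0187). Within mice 1, 2 and 3 the log2 differences were 1.57, 0.89 and 1.89. Without vehicle replicate 2 the log2 fold change was 2.02 (adjusted p = 0.000194), whereas the call was lost without vehicle replicate 1 (1.12, adjusted p = 0.0627), vehicle replicate 3 (1.08, adjusted p = 0.0540) or AOA replicate 2 (1.10, adjusted p = 0.0678).

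Bcat2 (plus strand, chr7:45570153-45589711) stood at 43.2, 48.9 and 43.3 CPM in vehicle and 39.5, 37.5 and 35.2 CPM with AOA. Every AOA library was under every vehicle library, with a gap smaller than the range within either group. The means were 45.1 ± 3.25 and 37.4 ± 2.14 CPM, and the log2 fold change was -0.27 (95% interval -0.56 to 0.02, edgeR adjusted p = 0.105). This interval allows no difference as well as a fold of 0.678. Bcat2 was not called under any of the 13 alternatives run, with adjusted p between 0.0632 and 0.301. Antisense genes share 337 exonic bases with Bcat1 (Gm26666) and 622 with Bcat2 (0610005C13Rik), and 2.01% and 8.23% of the 75-base stretches of the transcripts of Bcat1 and Bcat2 occur in other genes when strand is ignored.

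Per kilobase, Bcat2 remained the more abundant transaminase mRNA in every library. It exceeded Bcat1 28.2 ± 11.99 times by RPKM in vehicle and 8.001 ± 2.19 times with AOA. Bcat1 made up 2.87%, 6.50% and 2.69% of the summed RPKM of both in vehicle libraries and 8.86%, 14.5% and 11.4% in AOA libraries, whereas the sum itself was 21.4 ± 2.04 RPKM in vehicle and 19.2 ± 1.02 RPKM with AOA. The share of the mRNA of the cytosolic isoenzyme was thus higher in each AOA library, in a sum whose group ranges nearly met. The log2 ratio of Bcat1 to Bcat2 by CPM was -3.17, -1.96 and -3.27 in vehicle and -1.48, -0.68 and -1.08 with AOA. The ratio was higher by 1.72 with AOA, and by 1.27 to 2.19 within mice, in 3 of 3 mice (two-sided exact permutation test over all 6 libraries, p = 0.1, the smallest that 3 libraries against 3 allow, and exact sign-flip test over the 3 mice, p = 0.25, the smallest for 3 pairs). Leaving out each library in turn gave 1.49 to 2.14.

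**Figure D2:**
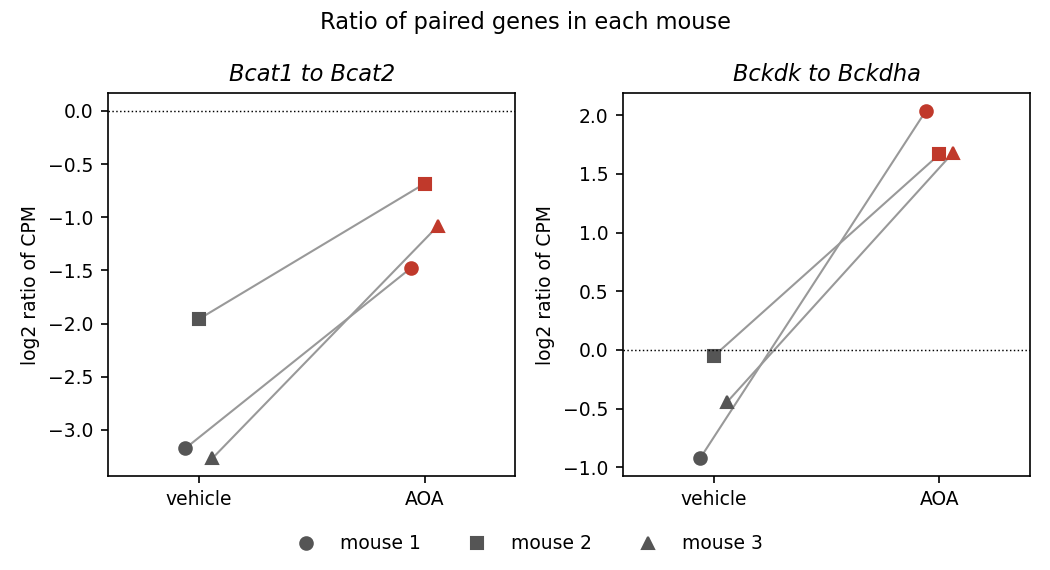
Log2 ratio of CPM (y axis) of Bcat1 to Bcat2 (left) and of Bckdk to Bckdha (right) in vehicle and AOA libraries, with a line for each mouse and a dotted line at equal CPM. All 3 lines rise in both panels, by 1.27 to 2.19 for Bcat1 to Bcat2 and by 1.72 to 2.96 for Bckdk to Bckdha, and only the latter crosses equal CPM.

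Of the decarboxylase chains, Bckdha fell and Bckdhb rose. Bckdha (minus strand, chr7:25629946-25658981) encodes the chain that carries the regulatory phosphorylation. It was the steadiest of the 6 genes within vehicle, with 43.7, 43.0 and 44.0 CPM from 550 to 810 reads, and stood at 20.3, 23.3 and 23.5 CPM with AOA. The groups were far apart relative to the spread in either, including in mouse 2. Bckdha was 1.95-fold lower with AOA, with a log2 fold change of -0.96 (SE 0.13, edgeR adjusted p = 0.000387) and -1.10, -0.88 and -0.90 within mice 1, 2 and 3, and it was called under all 13 alternatives. B3gnt8, on the opposite strand, shares 1171 exonic bases with Bckdha, and 43% of the 75-base stretches of Bckdha transcripts also occur in B3gnt8 when strand is ignored. B3gnt8 was not analysed here, and how the counting treated strand was not stated, so that its part in the Bckdha counts was not tested.

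Bckdhb (plus strand, chr9:83925145-84124240) had the fewest reads, with 13, 41 and 21 in vehicle and 84, 56 and 90 with AOA. Its levels were 1.03, 2.60 and 1.14 CPM in vehicle and 3.86, 2.96 and 4.54 CPM with AOA. Vehicle replicate 2 and AOA replicate 2, from the same mouse, differed little, whereas mice 1 and 3 gave large differences. On average Bckdhb was 2.37-fold higher (95% interval 1.27 to 4.40), with a log2 fold change of 1.24 (SE 0.40, edgeR adjusted p = 0.0254) and 1.80, 0.18 and 1.89 within mice 1, 2 and 3. The log2 fold change was 1.82 without vehicle replicate 2 (adjusted p = 0.00126). The call was lost without vehicle replicate 1 (adjusted p = 0.0803), vehicle replicate 3 (0.0820), AOA replicate 1 (0.0747) or AOA replicate 3 (0.0886), with log2 fold changes of 1.05 to 1.23.

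Dbt (plus strand, chr3:116513070-116549981), the transacylase core, rose by the smallest fold of the 4 genes called higher. It was at 21.0, 26.6 and 22.9 CPM in vehicle and 35.6, 31.7 and 34.1 CPM with AOA, with a gap between the groups about as wide as the vehicle range. The rise was 1.44-fold (95% interval 1.15 to 1.81), with a log2 fold change of 0.53 (SE 0.15, edgeR adjusted p = 0.0136) and 0.76, 0.25 and 0.57 within mice 1, 2 and 3. Without vehicle replicate 1 it was 0.47 and narrowly missed the threshold (adjusted p = 0.0521). Dld, the flavoprotein that the complex shares with its relatives, rose by a similar fold, from 82.8 ± 1.38 to 113 ± 5.60 CPM (log2 fold change 0.45, SE 0.12, edgeR adjusted p = 0.00953).

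The kinase gene Bckdk (plus strand, chr7:127904082-127910221) showed the clearest rise of the 6. It stood at 22.9, 41.4 and 32.3 CPM in vehicle and 83.8, 74.2 and 75.6 CPM with AOA, from 289 to 653 and 1403 to 1823 reads. The lowest AOA library was well above the highest vehicle library. Bckdk rose 2.41-fold (95% interval 1.76 to 3.30), with a log2 fold change of 1.27 (SE 0.20, edgeR adjusted p = 0.000813) and 1.86, 0.84 and 1.22 within mice 1, 2 and 3, and it was called under all 13 alternatives. Ppm1k, the phosphatase that opposes it, fell from 30.9 ± 3.69 to 23.2 ± 1.36 CPM (log2 fold change -0.41, SE 0.15, edgeR adjusted p = 0.0408). That call was lost with mouse as a block (adjusted p = 0.0566), with no filter on low counts (0.0515), and when vehicle replicate 1 or 3 or AOA replicate 2 or 3 was left out (0.115 to 0.175).

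Set against its target, the kinase changed places with Bckdha. The log2 ratio of Bckdk to Bckdha by CPM was -0.93, -0.05 and -0.44 in vehicle and 2.04, 1.67 and 1.68 with AOA, a difference of 2.27 that was seen in 3 of 3 mice (1.72 to 2.96 within mice; two-sided exact permutation test over all 6 libraries, p = 0.1, the smallest it allows, and exact sign-flip test over the 3 mice, p = 0.25, the smallest for 3 pairs). It was 2.04 to 2.48 when each library was left out in turn. By RPKM, Bckdk was at 0.460 ± 0.136 of the Bckdha level in vehicle and at 2.18 ± 0.330 times that level with AOA.

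The order of the 6 genes by RPKM changed accordingly. In vehicle, Bckdha was highest (24.6 ± 0.284 RPKM), followed by Bcat2 (20.5 ± 1.48), Bckdk (11.3 ± 3.23) and Dbt (7.13 ± 0.865), with Bckdhb (0.981 ± 0.540) and Bcat1 (0.887 ± 0.567) far under the rest. With AOA, Bckdk was highest (27.3 ± 1.82 RPKM), followed by Bcat2 (16.97 ± 0.973), Bckdha (12.6 ± 0.999) and Dbt (10.3 ± 0.601), and Bckdhb (2.34 ± 0.489) and Bcat1 (2.22 ± 0.587) were again last. In both groups the ranges of Bckdhb and Bcat1 overlapped, so that their order is not resolved. In vehicle the ranges of Bckdk (8.03 to 14.5 RPKM) and Dbt (6.36 to 8.07 RPKM) overlapped slightly too. Among all genes tested, Bckdk stood at percentile 51.8 of mean RPKM in vehicle and 74.1 with AOA, Bckdha at 73.0 and 53.9, and Bcat1 at 9.35 and 20.8.

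**Figure D3:**
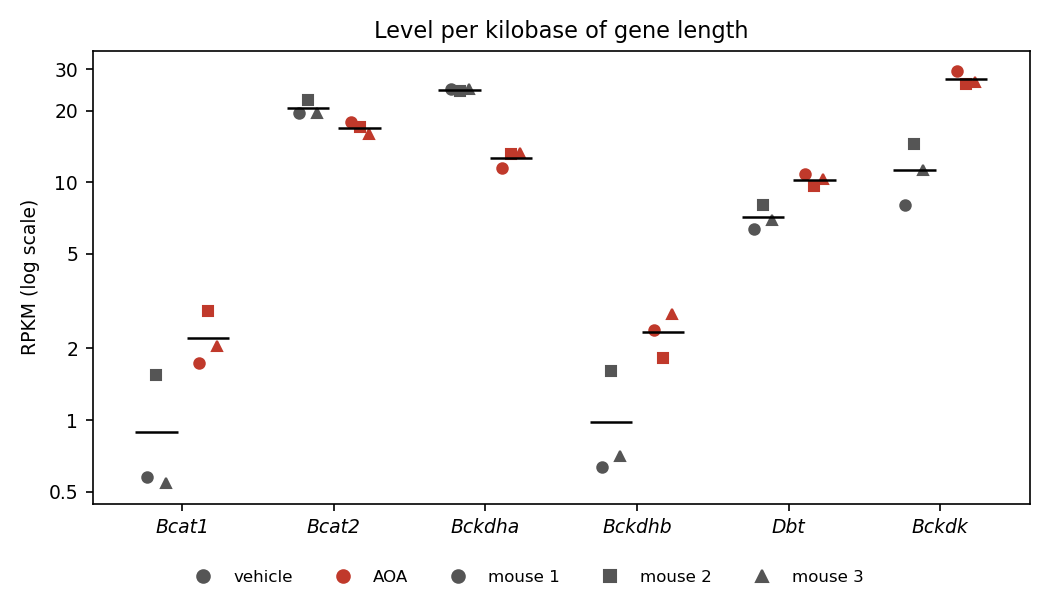
RPKM of the 6 genes (y axis, log scale) in vehicle (grey) and AOA (red) libraries, with marker shape for the mouse and a line at each group mean. Bckdha and Bcat2 lead in vehicle (24.6 and 20.5 RPKM) and Bckdk leads with AOA (27.3 RPKM), and Bcat1 and Bckdhb are lowest in both groups.

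Within the complex, the ratios of Bckdha to the other two subunits were lower with AOA. Bckdha exceeded Bckdhb 29.7 ± 12.7 times by RPKM in vehicle and 5.58 ± 1.39 times with AOA, and exceeded Dbt 3.48 ± 0.438 and 1.23 ± 0.156 times. Dbt exceeded Bckdhb 8.31 ± 2.84 times in vehicle and 4.51 ± 0.786 times with AOA, but this ratio overlapped between the groups and in mouse 2 was 5.03 in vehicle and 5.28 with AOA. In vehicle the ratios to Bckdhb were lowest in replicate 2.

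The start-site regions of the genes were described beside those of all genes, using the 250 bases before each listed start (build GRCm38.p6). A listed start is not always the outermost RefSeq start of the gene, which is 83925111 for Bckdhb and 45568967 for Bcat2. There were 8 such windows for 5 of the 6 genes, all but Dbt. CCAAT, the core of the site bound by the factor NF-Y, was found on either strand in 3 of the 8 windows, those of Bcat1, Bckdhb and Bckdk, which were all called higher, and in none of Bcat2 or Bckdha. Bcat1 and Bckdhb have 2 windows each, and the second window of either does not hold it. The motif occurs in 33.8% of the 32851 mouse promoter windows of the same length, so a share of 3 in 8 is near the background. These 3 windows, and not the second windows of Bcat1 and Bckdhb, are shown because they hold the motif. They are printed on the strand of the gene and 5' to 3', with CCAAT or its reverse complement in capitals. Bcat1 is chr6:145076158-145076407 (minus strand), Bckdhb is chr9:83924887-83925136 (plus strand) and Bckdk is chr7:127903823-127904072 (plus strand).
Bcat1: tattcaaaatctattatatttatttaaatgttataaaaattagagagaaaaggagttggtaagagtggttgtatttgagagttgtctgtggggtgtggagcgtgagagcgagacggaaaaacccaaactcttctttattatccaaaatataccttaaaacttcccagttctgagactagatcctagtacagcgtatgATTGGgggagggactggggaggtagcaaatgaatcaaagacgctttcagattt
Bckdhb: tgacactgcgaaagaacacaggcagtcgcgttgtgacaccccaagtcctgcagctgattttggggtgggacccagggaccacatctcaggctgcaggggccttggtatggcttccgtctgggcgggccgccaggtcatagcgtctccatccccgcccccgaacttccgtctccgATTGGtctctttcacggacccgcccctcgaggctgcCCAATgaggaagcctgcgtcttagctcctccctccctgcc
Bckdk: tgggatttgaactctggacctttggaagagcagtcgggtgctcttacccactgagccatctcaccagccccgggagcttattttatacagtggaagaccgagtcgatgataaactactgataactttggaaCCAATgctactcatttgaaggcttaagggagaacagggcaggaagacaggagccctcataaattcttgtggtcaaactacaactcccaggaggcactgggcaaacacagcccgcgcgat
The match begins 53 bases before the start in Bcat1, 76 and 40 bases before it in Bckdhb, and 119 bases before it in Bckdk. Searched on both strands too, GGGCGG (the GC box) was in 1 of the 8 windows, that of Bckdhb, and in 32.7% of all windows, and TATAAA was in 2 windows, those of Bcat1 and Bckdk, and in 12.4% of all. The E-box CACGTG (6.02% of all windows), TGATGNAA (3.45%), which is the form of the amino acid response element bound by ATF4, and TGACGTCA (1.55%), the cyclic AMP response element, were in 0 of the 8. No CCAAT match overlapped another of these motifs. A match describes the letters of the window and is not a measurement of binding.

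Of 41 other genes listed for branched-chain amino acid handling, 37 were in the table and all were tested: 5 rose, 7 fell and 25 were not called, with a median log2 fold change of -0.01. Beside them, 26.2% of all genes tested were called higher and 26.8% lower. Transporter genes gave no call in 5 of 5 tested. Slc7a5, the light chain of the main leucine transporter of activated T cells, stood at 57.8, 182 and 54.8 CPM in vehicle and 128, 216 and 199 CPM with AOA (log2 fold change 0.88, SE 0.43, edgeR adjusted p = 0.114). Its vehicle replicate 2 lay among the AOA libraries, as for no other vehicle library of this gene, and Slc7a5 was called without it (1.72, adjusted p = 0.000236) and with mouse as a block (1.08, adjusted p = 0.00853). Its partner, the heavy chain Slc3a2, had a log2 fold change of -0.16 (adjusted p = 0.356), and Slc25a44, the mitochondrial carrier of branched-chain amino acids, one of 0.13 (adjusted p = 0.517). Slc43a2, a further carrier of neutral amino acids, had one of -0.56 (adjusted p = 0.0885), which was called without vehicle replicate 2 (-0.77, adjusted p = 0.00461).

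After the dehydrogenase the paths of the 3 amino acids part. On the leucine path, 2 of 5 genes tested fell: Mccc1, a subunit of methylcrotonyl-CoA carboxylase, from 10.2, 16.5 and 12.3 CPM in vehicle to 6.67, 6.98 and 6.51 CPM with AOA (log2 fold change -0.96, SE 0.22, edgeR adjusted p = 0.00546), and Auh, the next enzyme, a hydratase, from 34.3, 31.7 and 32.7 to 19.9, 19.3 and 16.6 CPM (-0.82, SE 0.14, adjusted p = 0.00124). The groups did not overlap for either gene, and both calls held under all 13 alternatives. The other 3 genes had log2 fold changes of -0.21 to 0.13. Of all genes tested, 26.2% were called higher and 26.8% lower.

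The valine and isoleucine paths gave calls in both directions, with 2 of 10 genes higher, 2 lower and 6 not called. The shares over all genes tested were 26.2% called higher and 26.8% called lower. The rises were in Acat1, the mitochondrial thiolase that ends the isoleucine path, from 60.5 to 96.2 CPM (log2 fold change 0.67, SE 0.17, edgeR adjusted p = 0.00985), and in Hadhb, a thiolase subunit of fatty acid oxidation, from 36.1 to 55.0 CPM (0.60, adjusted p = 0.00378). Lower were Aldh6a1, the semialdehyde dehydrogenase of the valine path, from 9.75 to 3.85 CPM (-1.33, SE 0.24, adjusted p = 0.00153), and Acad8, isobutyryl-CoA dehydrogenase, from 20.5 to 15.5 CPM (-0.40, adjusted p = 0.0373). The Acad8 call was lost with mouse as a block (adjusted p = 0.0696), with no filter on low counts (0.05004) and when any single library except AOA replicate 1 was left out (0.0531 to 0.130). Hibch and Hibadh, which take the valine intermediate further, had log2 fold changes of -0.48 (adjusted p = 0.0811) and 0.34 (adjusted p = 0.0628). Hibch was called lower with mouse as a block (-0.49, adjusted p = 0.0431), without vehicle replicate 2 (-0.61, adjusted p = 0.0219) and without AOA replicate 1 (-0.69, adjusted p = 0.0290), and Hibadh was called higher when libraries were scaled by total counts (adjusted p = 0.0477) or no filter was used (0.0441).

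Of 6 genes for the path from propionyl-CoA to succinyl-CoA and for the cobalamin cofactor it needs, 1 rose, Pccb, a subunit of propionyl-CoA carboxylase, from 14.6 to 20.6 CPM (log2 fold change 0.49, SE 0.16, edgeR adjusted p = 0.0292). This call was lost when any single library except vehicle replicate 2 was left out (adjusted p 0.0556 to 0.0992). The other 5 lay between -0.51 and 0.26. Over the 21 genes after the dehydrogenase, 3 rose and 4 fell, beside 26.2% of all genes tested called higher and 26.8% called lower. The median log2 fold change of the 21 genes was -0.09.

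**Figure D4:**
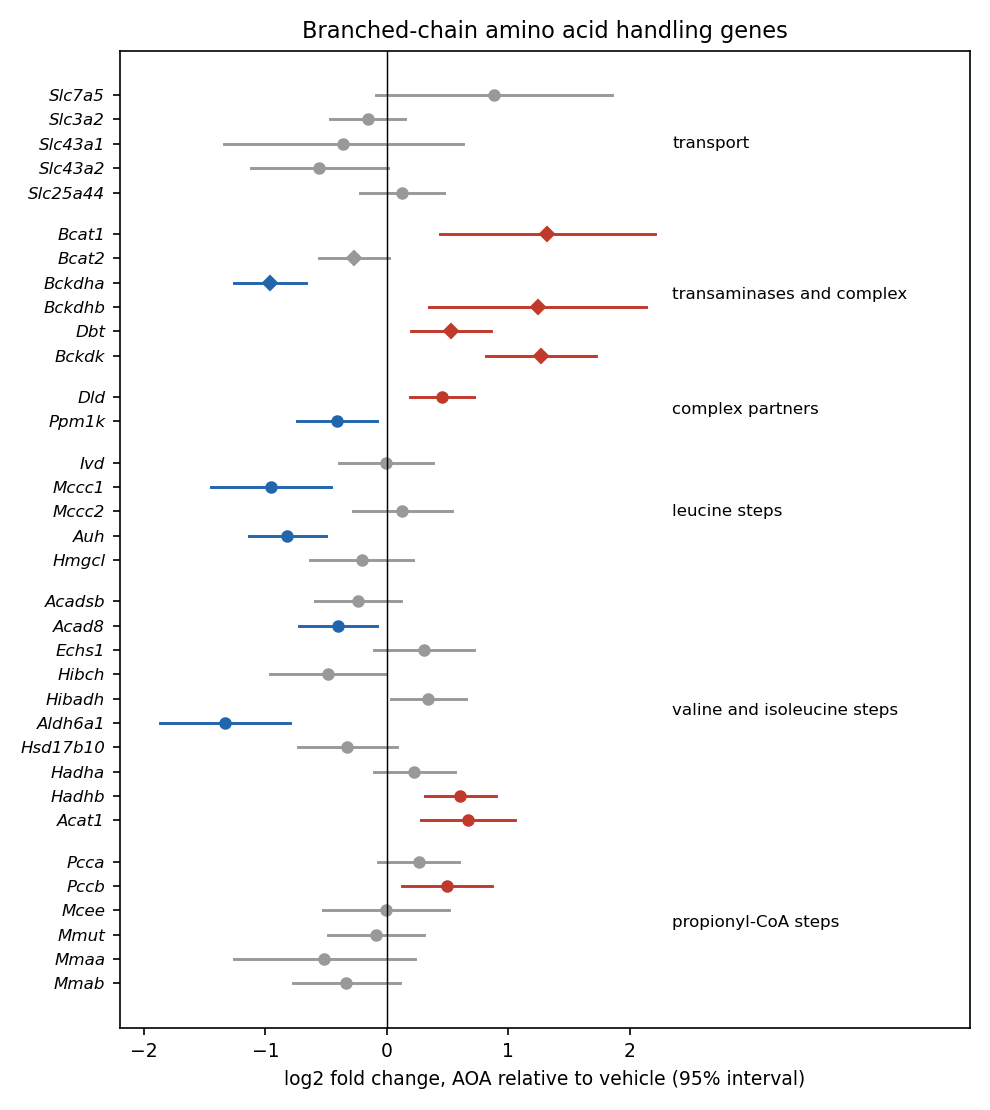
Log2 fold change of AOA over vehicle (x axis) with its 95% interval for the 6 genes (diamonds) and for genes of transport, the complex and the later steps (circles), in rows by step. Red marks genes called higher, blue those called lower and grey those not called by edgeR. Bckdha (-0.96) and Bckdk (1.27) lie on opposite sides of 0, and calls in the later steps fall on both sides, from Aldh6a1 (-1.33) to Acat1 (0.67).

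Related enzymes were set side by side with the 6 genes. A list of 15 other PLP-dependent enzymes held transaminases and the lyase genes Phykpl and Etnppl. Of these, 9, with Phykpl among them, were in the table and tested. In this list 3 rose, 1 fell and 5 were not called, beside 26.2% of all genes called higher and 26.8% called lower. Psat1, of serine synthesis, rose from 42.6, 91.8 and 54.8 CPM to 279, 223 and 220 CPM (log2 fold change 1.93, SE 0.26, edgeR adjusted p = 0.000383), Oat, ornithine aminotransferase, from 35.9 to 109 CPM (1.60, adjusted p = 2.52e-05), and Kyat3, a kynurenine aminotransferase, from 5.50 to 12.4 CPM (1.17, adjusted p = 0.00313). Vehicle replicate 2 was the highest vehicle library for these 3 genes, as it was for Bcat1. Kyat1, named here after its values were seen because it was the 1 transaminase that fell, had a log2 fold change of -1.27 (adjusted p = 0.00181).

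The pyruvate and oxoglutarate dehydrogenases are built like the branched-chain complex. Of their 6 subunit genes apart from Dld, 4 rose: Pdhx, a binding protein of the pyruvate complex (log2 fold change 1.23, SE 0.17, edgeR adjusted p = 0.000373), Pdha1 (0.55, adjusted p = 0.00521), Dlst (0.55, adjusted p = 0.00602) and Pdhb (0.41, adjusted p = 0.0162), the last named after its values were seen to complete the count. None fell, beside 26.2% of all genes called higher and 26.8% called lower, and the call of Pdhb was lost without vehicle replicate 3 or AOA replicate 3 (adjusted p 0.0520 and 0.0534). Pdha1 and Bckdha, the phosphorylated alpha chains of the 2 complexes, stood on opposite sides of 0 (0.55 and -0.96), a difference that was not tested itself. Of 3 pyruvate dehydrogenase kinase genes tested, Pdk3 rose from 23.99 to 52.5 CPM (1.13, adjusted p = 0.000529), Pdk1 was not called (250.1 and 234 CPM on average, -0.10, adjusted p = 0.794), and Pdk2, named after its values were seen because it was the 1 kinase that fell, had a log2 fold change of -1.79 (adjusted p = 0.000825). Of 3 genes of the phosphatase, Pdp1 rose (0.81, adjusted p = 0.0150), a call lost without vehicle replicate 1, vehicle replicate 3 or AOA replicate 1 (adjusted p 0.0506 to 0.0517).

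Over the 6 libraries, the genes whose log2 CPM most resembled that of Bcat1, among 8761 genes with a mean of at least 10 CPM, were Pmaip1 (Pearson r = 0.996), Cluh (0.995) and Sypl (0.995), and 236 genes had r over 0.95. Pmaip1 encodes a BH3-only protein of apoptosis, and Cluh binds mRNAs of mitochondrial proteins. For Bcat2 they were Rida (0.994), Gpr174 (0.993) and 5430427O19Rik (0.992), with 84 genes over 0.95. These are descriptions: the 6 points fall into 2 treatment groups, which alone gives high correlations in either direction to genes that differ between groups.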

How the data were processed

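The submitters made stranded poly(A) mRNA libraries, sequenced them as 75-base read pairs and counted uniquely mapped reads per gene. The processing notes name bcl2fastq, STAR, featureCounts, DESeq2 and build mm10, whereas their versions, the annotation, the gene filter and the strand setting are not given in the text and labels at hand. The authors deposited raw read counts per gene with Entrez identifier and gene length, with no normalization. Symbols of 18 genes had been turned into dates and were left as they stood.

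From the counts, edgeR 4.0.16 in R 4.3.3 (filterByExpr with a minimum count of 10, TMM, robust quasi-likelihood test) tested AOA against vehicle in all 6 libraries, with Benjamini-Hochberg adjustment over 11759 genes at 0.05. Intervals are 95% and log2 CPM used a prior count of 2. Alternatives left out each library in turn, added mouse as a block, replaced the tool by DESeq2 1.42.0 or voom of limma 3.58.1, scaled by total counts or by median-of-ratios size factors, or changed the filter to none or to at least 10 CPM in 3 libraries. The labels give the mouse donor, so that same-numbered libraries are paired. The correlations of their deviations from the group means were 0.0868, 0.189 and 0.194 for mice 1, 2 and 3. Replicates differed by far more than sampling noise (chi-square per gene 10.0 to 71.1). The value was 71.1 and 64.6 for AOA replicate 1 against AOA replicates 2 and 3, which gave 10.5 between them. For vehicle replicate 2 against vehicle replicates 1 and 3 it was 55.1 and 59.7, and 10.0 between those. P-values measure the spread between cultures of 3 mice.

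Named were all 6 genes, genes of the pathway lists, up to 3 called genes per direction of each list of related enzymes if their higher group averaged at least 10 CPM (exceptions are stated where they are named), and the 3 genes most like Bcat1 and Bcat2. The genes, lists and rules were chosen with earlier results of these data known. The script was tested on simulated data. Positions are from GENCODE (GRCm38) and promoter windows from RefSeq.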

Additional observations from a re-analysis of the deposited data

How the results depend on the processing

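The 6 genes kept their direction under all alternatives that gave a value, 13 each and 12 for Bckdhb, which the filter of at least 10 CPM in 3 libraries removed. Leaving out 1 library at a time gave log2 fold changes of 1.08 to 2.02 for Bcat1, 1.05 to 1.82 for Bckdhb and 0.47 to 0.66 for Dbt, each with the calls lost that are named beside these genes, and left 1 to 4 of the genes called higher (1 without vehicle replicate 1 and 2 without vehicle replicate 3) and 1 called lower throughout. Of the other pathway genes, 3 to 8 were then called higher (8 without vehicle replicate 2, and 3 without vehicle replicates 1 or 3 or AOA replicates 2 or 3) and 4 to 8 lower (4 without those same 4 libraries). A left-out library also lowers the number of samples. With mouse as a replicate block, 8 pathway genes were called higher instead of 5, Bcat1 was at 1.45 (adjusted p = 0.000439) and Bckdhb at 1.31 (adjusted p = 0.0177). Over all genes the block called 6292 and the fit without it 6233, with 6007 shared, and it changed no call of the 6 genes. With at least 10 CPM in 3 libraries, 0 related enzymes were called lower instead of 2, since that filter removes Kyat1 and Pdk2. Over all genes, leaving out libraries gave 2519 to 3499 genes called higher and 2433 to 3297 called lower. Bckdhb had as few as 13 reads in a library and Bcat1 as few as 59, and the part of depth in their errors was not tested.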

Other observations

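Of 6 genes for the tRNA ligases of leucine, isoleucine and valine, 1 rose and 1 fell. Among all genes tested, 26.2% were called higher and 26.8% lower. Lars2, the mitochondrial leucine ligase, was at 2855, 1876 and 2301 CPM in vehicle and 915, 1119 and 1039 CPM with AOA, so that each AOA library was under each vehicle library (log2 fold change -1.19, SE 0.20, edgeR adjusted p = 0.00105), and it was called under all 13 alternatives. Iars2, the mitochondrial isoleucine ligase, was higher (0.42, SE 0.13, adjusted p = 0.0239), a call lost without vehicle replicates 1 or 3 or AOA replicates 2 or 3 (adjusted p 0.0776 to 0.0884). Lars, the cytosolic leucine ligase, had a log2 fold change of 0.51 (adjusted p = 0.0822) and was called with mouse as a block (0.55, adjusted p = 0.0214) and without vehicle replicate 2 (0.86, adjusted p = 0.00163). Per kilobase, Lars2 stood far above these ligases, at 528 RPKM in vehicle and 231 RPKM with AOA. Iars2 was at 26.3 and 35.1 RPKM and Lars at 17.1 and 24.4 RPKM. Stretches shared with other genes were searched only for the 6 genes, so that the source of the Lars2 reads was not tested.

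Sestrins restrain mTORC1 signalling, and Sestrin2 is known as a leucine sensor. Sesn3 was lower with AOA, at 107, 92.7 and 114 CPM in vehicle and 74.0, 82.4 and 82.3 CPM with AOA (log2 fold change -0.40, SE 0.13, edgeR adjusted p = 0.0296), a call lost when any library but vehicle replicate 2 was left out (adjusted p 0.0530 to 0.160). Sesn2 was at 15.9, 34.0 and 18.3 CPM in vehicle and 25.4, 36.2 and 33.3 CPM with AOA. Its vehicle replicate 2 lay within the AOA range, as for Slc7a5, and its log2 fold change was 0.47 (adjusted p = 0.179), 0.54 with mouse as a block (adjusted p = 0.0317) and 0.92 without that library (adjusted p = 0.00272).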
